A study of Mus musculus with 36 samples.

Results

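DNA methylation was compared between the Ikaros and Control series of the B3 cell line at 2 h and 6 h, the earliest time points after induction. The comparison took every sample of these 2 series at these times from the level table, which gave 12 of the 36 samples of the study: 6 Ikaros and 6 Control samples, with 3 replicates per series and time point. B3 is a mouse pre-B cell line. Cells of the Ikaros series carried a murine stem cell virus (MSCV) retroviral vector for HA-Ikaros-ERt2-IRES-GFP, in which tagged Ikaros is fused to a hormone-binding domain of the estrogen receptor. Control cells carried the vector with ERt2-IRES-GFP and no Ikaros. Transduced cells of both series were sorted on GFP, and 4-OHT (a form of tamoxifen that binds ERt2) was given to both at 0.5 uM, so the drug and the ERt2 domain were shared. The series were separately transduced populations of 1 cell line, and a difference between the series that existed before 4-OHT cannot be told apart from one that followed it by using the 2 h and 6 h samples alone. Replicates 1, 2 and 3 came from the experimental batches 1, 3 and 4. By the methods, cells of each series were thawed, expanded and then split into flasks for the time points. The 2 h and 6 h samples of a series and batch thus shared 1 expansion, and the 6 samples per series stand for 3 expansions.

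Ikaros (encoded by Ikzf1) is a zinc finger transcription factor that restrains the growth of pre-B cells and promotes their differentiation, and the ERt2 fusion enters the nucleus when 4-OHT is added. Methylation of the cytosine in CG dinucleotides is copied to the new strand when DNA is replicated, and it can be lost or gained through DNA methyltransferases and TET enzymes. CG-rich promoters are mostly unmethylated, whereas CGs within genes and between them are mostly methylated. Reduced representation bisulfite sequencing (RRBS) reads the level at CGs close to the cut sites of the enzyme MspI, which cuts at CCGG.

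The level of a position is the percentage of molecules read as methylated there. Listed positions at most 100 bp apart were joined into CpG clusters, and the level of a cluster is the mean over its positions with a value in all 12 samples. Of 1116417 positions, 96.0% had a value in all 12, and 17864 of 18009 clusters could be tested, with a median of 45 such positions and 390 bp. The depth behind the levels is unknown, and the deposited levels were smoothed, so neighbouring positions are not independent. Positions without a value made up 0.155% to 0.415% in the Ikaros samples and 0.121% to 2.79% in the Control samples. The share of positions at exactly 0 or 100% was 32.0% ± 3.03 in Ikaros and 27.2% ± 6.03 in Control (SD, n = 6 each, exact permutation test, two-sided, p = 0.135). The clusters at promoters of pre-B genes were unmethylated. They covered 4 of 13 listed genes, Bach2 (2 clusters), Ebf1, Pax5 and Vpreb1, with mean levels between 0.135% and 0.965%. Of the 4 clusters at myeloid promoters (Cebpa and Cebpe), 3 were methylated. Of the 6 clusters at T-lineage promoters, 2 were methylated, 3 intermediate and 1 unmethylated, with mean levels from 9.52% (Gata3) to 98.1% (Bcl11b). Of the 4 at erythroid and megakaryocyte promoters, 2 were methylated, 1 intermediate and 1 unmethylated. Of the other pre-B markers, Rag1 for example had no cluster.

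The sequences of 6 clusters are shown as examples of large differences outside annotated UTRs: Mllt3, Zfp36, Neurog3 and Tnrc18 among those higher in Ikaros, and Bcr and Gfra2 among those lower. They are the forward strand of GRCm38 (RefSeq), 5′ to 3′, and capitals mark the CGs with a value in all 12 samples. For Tnrc18 the 300 bases with most such positions are given, and the other clusters are whole.
Mllt3: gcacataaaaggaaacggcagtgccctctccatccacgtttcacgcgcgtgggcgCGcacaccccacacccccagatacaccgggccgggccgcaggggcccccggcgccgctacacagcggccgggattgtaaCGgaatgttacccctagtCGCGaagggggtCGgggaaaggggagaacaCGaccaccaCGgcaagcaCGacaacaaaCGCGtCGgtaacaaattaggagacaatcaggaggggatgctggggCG
Zfp36: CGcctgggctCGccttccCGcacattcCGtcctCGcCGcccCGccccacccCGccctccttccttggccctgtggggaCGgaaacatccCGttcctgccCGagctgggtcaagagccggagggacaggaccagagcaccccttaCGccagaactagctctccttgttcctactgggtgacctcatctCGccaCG
Neurog3: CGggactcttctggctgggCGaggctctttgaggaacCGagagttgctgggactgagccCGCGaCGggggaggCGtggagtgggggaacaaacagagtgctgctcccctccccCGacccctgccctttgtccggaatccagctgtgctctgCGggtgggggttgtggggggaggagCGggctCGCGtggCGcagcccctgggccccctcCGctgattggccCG
Tnrc18: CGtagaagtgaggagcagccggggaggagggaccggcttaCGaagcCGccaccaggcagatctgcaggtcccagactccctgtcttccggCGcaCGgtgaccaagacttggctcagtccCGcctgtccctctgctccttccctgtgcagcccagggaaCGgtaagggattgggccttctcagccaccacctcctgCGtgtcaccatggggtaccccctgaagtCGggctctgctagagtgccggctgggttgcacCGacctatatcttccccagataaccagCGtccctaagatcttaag
Bcr: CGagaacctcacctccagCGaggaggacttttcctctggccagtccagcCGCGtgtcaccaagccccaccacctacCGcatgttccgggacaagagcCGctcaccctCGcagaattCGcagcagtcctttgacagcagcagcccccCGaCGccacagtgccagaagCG
Gfra2: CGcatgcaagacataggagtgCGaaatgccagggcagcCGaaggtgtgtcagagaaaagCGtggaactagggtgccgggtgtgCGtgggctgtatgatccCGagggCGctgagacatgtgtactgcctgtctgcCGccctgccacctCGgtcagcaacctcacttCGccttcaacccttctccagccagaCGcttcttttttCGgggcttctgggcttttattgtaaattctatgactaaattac

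Mllt3 lay at chr4:88031803-88032059, in an intron, with its middle 882 bp downstream of the nearest annotated start. The Zfp36 cluster, at chr7:28376448-28376641, was intergenic and began just beyond the 3′ end of the gene. Neurog3, at chr10:62132787-62133009, lay directly upstream of its start, and the sequence of Tnrc18, at chr5:142814189-142814488, lay in an intron. Bcr, at chr10:75062036-75062203, lay in a coding exon. Gfra2, at chr14:70888640-70888884, was intergenic, with its middle at −1358 bp from the nearest start. All positions with a value in all 12 samples moved in the same direction within each of these 6 clusters. A position is a cytosine on either strand, so a CG can count once per strand, and the 23 positions of Mllt3 lie in 12 CGs. In Mllt3 the difference between the series ranged from 30.6 to 37.8 points along 23 positions, where a point is 1 percentage point of methylation. In Gfra2 it ranged from −19.8 to −12.7 points along 23 positions. In Neurog3 the difference varied more, from 8.31 to 39.6 points along 30 positions. Over all 208 called clusters described next, 115 had every position in the called direction, and 93 held 1 or more positions that did not differ in that direction.

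**Figure D1:**
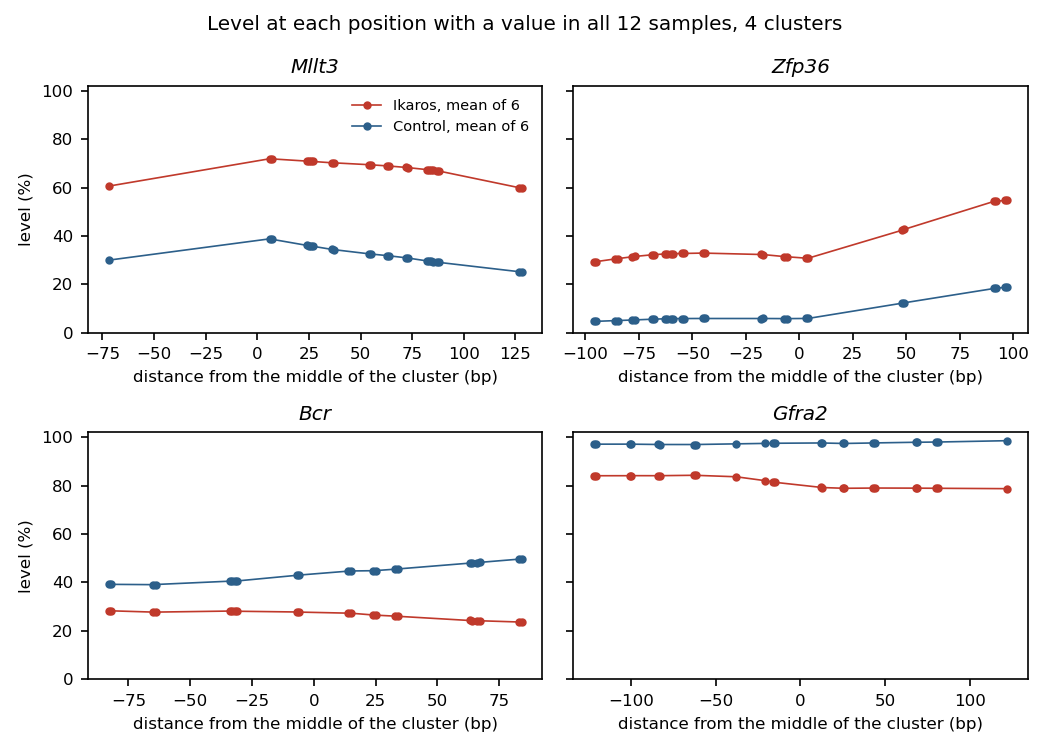
Mean level (%) of the 6 Ikaros (red) and 6 Control (blue) samples at each position with a value in all 12 samples, in 4 clusters, against the distance (bp) from the middle of the cluster. The lines do not cross in any of the 4 clusters, with Ikaros above Control in Mllt3 and Zfp36 and below it in Bcr and Gfra2.

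The first question was which clusters differed between the series at 2 h and 6 h. With limma (series and time point as factors, Benjamini-Hochberg adjusted p under 0.05 over all clusters), 208 of 17864 clusters (1.16%) differed. Of these, 161 (0.901% of all) were higher and 47 (0.263% of all) lower in Ikaros, so that 77.4% of the called clusters had more methylation in Ikaros. The median size of a called difference was 6.48 points, with quartiles of 3.06 and 11.11. Clusters higher in Ikaros differed by a median of 7.81 points and clusters lower in Ikaros by a median of −2.68 points, while the median over all clusters tested was 0.0095 points. A difference of over 10 points was called in 57 clusters that were higher and 8 that were lower, and one of over 20 points in 12 that were higher and 0 that were lower. The 6 Ikaros and 6 Control samples did not overlap in 182 of the 208 called clusters, against 329 of all clusters (1.84%).

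The number of calls depended on the fit. Blocking on replicate number left 135 calls, 125 of them among the 208. With the shares of missing values and of levels of exactly 0 or 1 as covariates, 64 were called, 56 of them among the 208. The deposited M-values, levels on a log2 scale, gave 103. Leaving out 1 replicate number, which removes 4 of the 12 samples, gave 14 to 27. Leaving out any 1 sample gave between 92 calls (without Ikaros 6 h replicate 1) and 149. Centring each sample on its mean gave 297 calls, 153 higher and 144 lower, so the split between higher and lower calls depended on the scaling. The mean over all clusters was 47.1% ± 0.132 in Ikaros and 46.9% ± 0.102 in Control (SD, n = 6 each), and centring removes this difference of 0.261 points. The difference was not even over clusters: its median was 0.0095 points, and 50.95% of clusters were higher in Ikaros. In the level classes described below, it was 1.94 points over intermediate, 0.0121 over unmethylated and 0.0745 over methylated clusters. Centring took the same amount from every cluster of a sample. With it, clusters at an unadjusted p under 0.05 by limma rose from 1852 to 3586. Whether the excess of higher calls is more than a shift of whole samples was not tested.

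**Figure D2:**
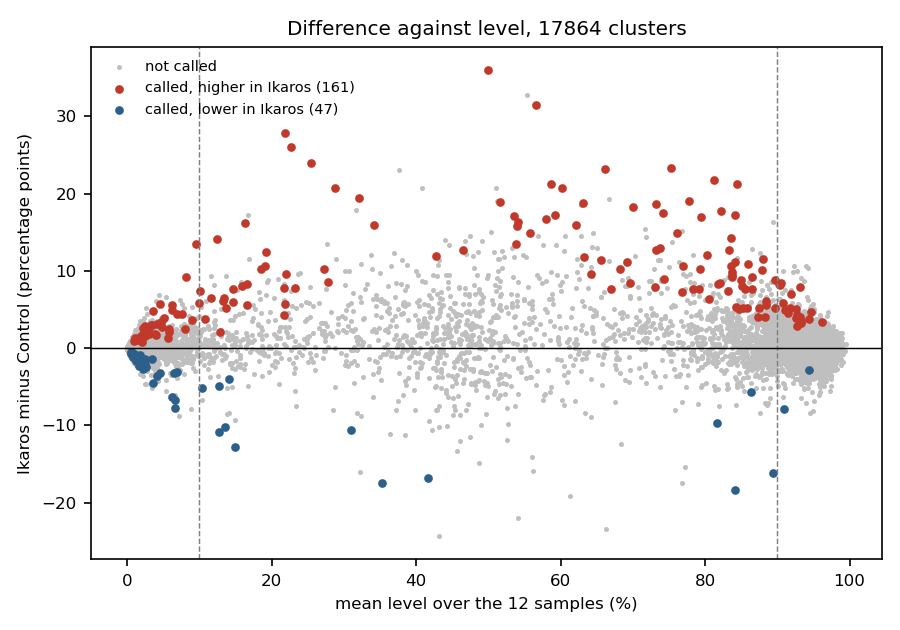
Difference between Ikaros and Control (percentage points) against the mean level over 12 samples (%) for the 17864 clusters tested. Red and blue points are the 161 clusters called higher and the 47 called lower in Ikaros, grey points were not called, and dashed lines mark the limits of the level classes at 10% and 90%.

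The called clusters were then counted by level class. A cluster was classed as unmethylated under a mean of 10% over the 12 samples, methylated over 90%, and intermediate between. Of 2063 intermediate clusters, 119 (5.77%) were called, 106 higher and 13 lower in Ikaros. Of 7353 methylated clusters, 21 (0.286%) were called, 19 higher and 2 lower. Of 8448 unmethylated clusters, 68 (0.805%) were called, 36 higher and 32 lower. Intermediate clusters can move in both directions by more points than clusters near 0 or 100%, and the median size of a called difference was 10.3 points in intermediate and 2.22 points in unmethylated clusters.

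By annotation, the shares were closer to each other. A cluster was a promoter cluster within 1000 bp of an annotated transcription start of a protein-coding gene, and otherwise exonic, intronic or intergenic. Of 13752 promoter clusters, 163 (1.19%) were called, 130 higher and 33 lower. Of the other clusters, 15 of 1875 exonic (0.800%), 12 of 747 intronic (1.61%) and 18 of 1490 intergenic clusters (1.21%) were called. Within the intermediate class, 92 of 1281 promoter clusters (7.18%) were called, 86 higher and 6 lower, against 10 of 255 exonic, 5 of 168 intronic and 12 of 359 intergenic clusters. Chromosome X held 5 called clusters of 389, 1 higher and 4 lower. None of these shares was tested against another.

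**Figure D3:**
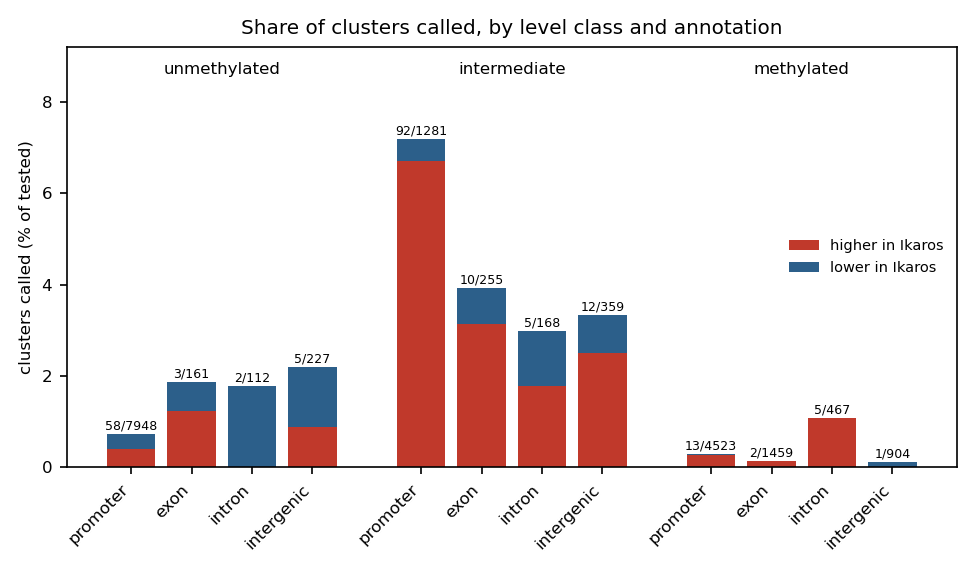
Share of tested clusters that were called (%), by level class and annotation, split into higher (red) and lower (blue) in Ikaros, with called and tested clusters above each bar. The highest share, 92 of 1281, was that of intermediate promoter clusters.

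The mean level of intermediate clusters separated the series. It was 62.1% ± 0.281 (SD, n = 6) in Ikaros and 60.2% ± 0.797 (SD, n = 6) in Control, a difference of 1.94 points (exact permutation test within time points, two-sided, p = 0.005, the smallest of 400 arrangements, adjusted p = 0.01 over 8 tests). Ikaros samples lay between 61.7% and 62.5% with a median of 62.1%, and Control samples between 58.7% and 61.0% with a median of 60.3%, so the series did not overlap. With the replicate block, in which series are swapped within pairs, the smallest possible p was 0.03125, and the results for all, intermediate, promoter, intronic and intergenic clusters each had an exact adjusted p of 0.05, which was not under the threshold. Both permutation tests, and limma without the block, treat the 2 h and 6 h samples of a batch as independent, although they shared an expansion. Within batches 1, 3 and 4 the difference over intermediate clusters was 1.67, 1.85 and 2.30 points. Unmethylated clusters differed by 0.0121 points (exact p = 0.855) and methylated clusters by 0.0745 points (exact p = 0.405, adjusted p = 0.463). Promoter clusters differed by 0.269 points and intronic clusters by 0.339 points (both exact p = 0.005, adjusted p = 0.01), intergenic clusters by 0.288 points (exact p = 0.01, adjusted p = 0.016) and exonic clusters by 0.143 points (exact p = 0.17). With medians over clusters in place of means, the difference over all clusters was 1.31 points (exact p = 0.11), against 0.261 points with means. Over promoter clusters it was 0.0458 points (exact p = 0.835) and over intergenic clusters 0.0671 points (exact p = 0.68), so these 3 calls did not hold.

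The largest called difference was at Mllt3, a subunit of the super elongation complex. Control samples ranged from 27.1% to 35.5% with a median of 32.8%, and Ikaros samples from 61.8% to 75.7% with a median of 67.1%. The means were 68.0% ± 4.91 and 32.0% ± 3.46 (SD, n = 6 each), which differed by 35.98 points ± 2.86 (SE, limma adjusted p = 0.00013). The series did not overlap, and the difference was 36.4 points at 2 h and 35.5 points at 6 h.

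Ephb6, an Eph receptor without kinase activity, held a promoter cluster at chr6:41605257-41605789 that includes UTR sequence. Control samples lay between 33.8% and 46.4% (median 42.0%) and Ikaros samples between 66.4% and 78.9% (median 72.5%). The difference was 31.5 points ± 3.13 (SE, limma adjusted p = 0.000875), with no overlap.

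Zfp36 encodes tristetraprolin, which binds AU-rich elements and promotes mRNA decay. At the cluster beyond its 3′ end, Control samples ranged from 4.57% to 13.46% (median 7.37%) and Ikaros samples from 32.4% to 38.2% (median 35.8%). The means differed by 27.9 points ± 1.72 (SE, limma adjusted p = 6.26e-05), again without overlap. This cluster was called in each of the 27 alternative fits, with differences of 26.5 to 30.04 points in those on the level scale.

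At Klf4, a Krüppel-like transcription factor, a cluster at chr4:55532219-55532296 lay between 68.0% and 77.0% in Control samples (median 75.4%) and between 92.5% and 98.3% in Ikaros samples (median 94.9%). The difference was 21.3 points ± 1.59 (SE, limma adjusted p = 9.53e-05). Klf2, a related factor that keeps lymphocytes quiescent, had a promoter cluster that was 10.1 points ± 1.73 higher (SE, adjusted p = 0.0202). Its Ikaros samples lay between 86.2% and 95.7% and its Control samples between 78.3% and 85.7%, so the ranges were separate by a small margin, and 5 of 12 fits without 1 sample lost this call.

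At Neurog3, a basic helix-loop-helix factor of the endocrine pancreas, Control samples ranged from 45.8% to 61.2% (median 56.5%) and Ikaros samples from 74.1% to 81.4% (median 77.7%). The difference was 23.3 points ± 2.76 (SE, limma adjusted p = 0.00317), and it was 15.1 points over the 18 of 30 positions complete in all 36 samples. Atxn1, which encodes ataxin-1, a transcriptional corepressor, was higher over a cluster of 1000 bp and 131 positions (chr13:45963503-45964502). Its Control samples ranged from 18.4% to 26.7% and its Ikaros samples from 38.1% to 45.8%, a difference of 19.5 points ± 2.29 (SE, adjusted p = 0.00316). Zfp608, a zinc finger protein, had a coding-exon cluster at 37.4% ± 7.48 in Ikaros and 13.52% ± 1.53 in Control (SD, n = 6 each), a difference of 23.9 points (adjusted p = 0.00463).

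**Figure D4:**
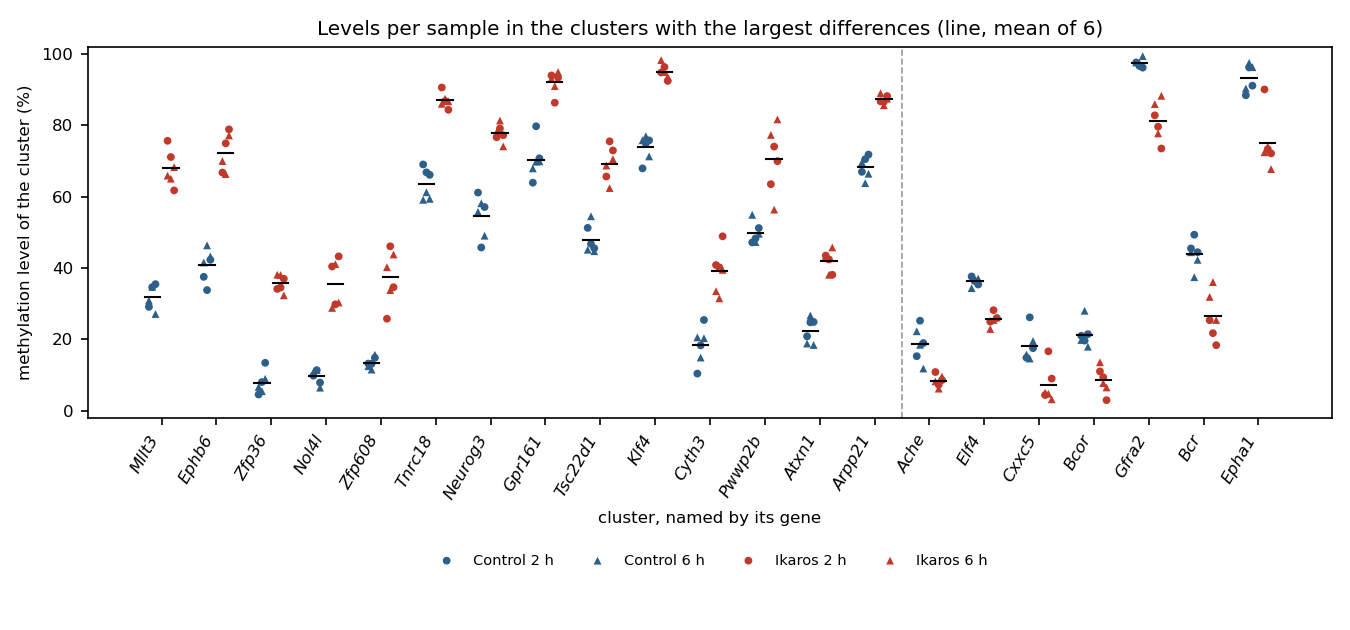
Level (%) in each of the 12 samples for 14 clusters with the largest differences higher and 7 lower in Ikaros (right of the dashed line), with circles for 2 h, triangles for 6 h and a line at the mean of 6 samples per series. Ikaros and Control samples separate in 19 of the 21 clusters and overlap in Epha1 and Cxxc5.

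The remaining clusters of the higher group had mixed roles. Tnrc18 was at 87.0% ± 2.06 in Ikaros and 63.7% ± 4.23 in Control (SD, n = 6 each), and no sample overlapped. Arpp21, a cAMP-regulated phosphoprotein gene, was at 87.3% ± 1.21 and 68.2% ± 2.98. Plekhg3, a guanine nucleotide exchange factor gene, was at 91.1% ± 2.13 and 73.4% ± 2.29, with an adjusted p of 7.88e-05 by limma. Nol4l, Tsc22d1, Cyth3 (a cytohesin that activates ARF proteins), Gpr161 (a ciliary receptor that restrains Hedgehog signalling), Pwwp2b (a chromatin protein with a PWWP domain), Ablim1, Fut11, Zswim5 and Plekhh1 were 17.5 to 26.0 points higher, and their adjusted p by limma lay between 0.00132 and 0.0398. The calls at Pwwp2b and Zswim5 did not pass with the replicate block (adjusted p = 0.0601 and 0.0617 by limma).

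Of the 36 called clusters that are named here, 22 were called in each of the 12 fits without 1 sample. The 14 that were not were Pwwp2b, Fut11, Zswim5, Id3, Klf2, Prkcb, Epha1, Bcr, Cxxc5, Ache, Cxcl3, Plppr3, Gas8 and Pfkl. With the covariates, 21 of the 36 were not past the threshold: these were 13 of those 14 (Ache was called) and Tsc22d1, Cyth3, Bcor, Elf4, Ablim1, D630045J12Rik, Smpd3 and Mycn. With M-values, 14 of the 36 were not past it, among them Cyth3, Bcor and Klf2.

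Clusters lower in Ikaros were fewer. At Gfra2, a receptor for neurturin, Control samples ranged from 96.2% to 99.4% (median 97.6%) and Ikaros samples from 73.5% to 88.3% (median 81.3%). The difference was −16.2 points ± 1.94 (SE, limma adjusted p = 0.00317), without overlap. It remained past the threshold with the replicate block (adjusted p = 0.00944 by limma).

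Bcr, the fusion partner of the Abl kinase in leukaemia, had a cluster in the coding sequence that was lower by 17.4 points. Its Control samples lay between 37.5% and 49.4% (median 44.5%) and its Ikaros samples between 18.4% and 36.1% (median 25.4%). The difference was −24.6 points at 2 h and −10.3 points at 6 h. With limma the adjusted p was 0.0303, and with the replicate block it was 0.0600, not past the threshold.

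Epha1, an Eph receptor tyrosine kinase, was lower by 18.4 points (limma adjusted p = 0.0254), and the adjusted p was 0.0546 with the replicate block. Of its Ikaros samples, 5 lay between 67.8% and 74.1% and 1 at 90.1%, inside the Control range of 88.5% to 97.5%. The cluster held 29 positions, of which 24 were lower in Ikaros. Bcor, which encodes a corepressor that binds Bcl6, had 2 called clusters in introns on chromosome X. In the larger one, at chrX:12090311-12090774, Ikaros samples ranged from 2.98% to 13.6% and Control samples from 18.0% to 28.1%, a difference of −12.8 points ± 1.97 (SE, adjusted p = 0.0122 by limma). Elf4, an ETS factor also on chromosome X, was at 25.6% ± 1.72 in Ikaros and 36.3% ± 1.19 in Control (SD, n = 6 each).

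Cxxc5 and Ache, the gene of acetylcholinesterase, were lower by 10.9 and 10.2 points (limma adjusted p = 0.0443 and 0.0306), and Ache lost its call with the replicate block (adjusted p = 0.0625). The next lower promoters differed by less. D630045J12Rik, Cxcl3 (a chemokine), Plppr3, Smpd3 (neutral sphingomyelinase) and Gas8 (a part of the dynein regulatory complex) differed by −6.32 to −3.96 points, with adjusted p between 0.0117 and 0.0404. For Cxcl3 the difference was −5.72 points, and −10.5 points over the 12 of 21 positions complete in all 36 samples. Plppr3 and Gas8 were not past the threshold with the replicate block (adjusted p = 0.0702 and 0.0675 by limma).

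Gene lists for this system were read by their clusters within 1000 bp of a transcription start. Of 66 clusters of B-lineage transcription factors (35 of 42 genes), 3 were called, all higher, against 1.16% of all clusters, and the median difference was −0.04 points against 0.0095. The 3 were Klf2, Mycn and Id3. Mycn, a relative of Myc, lay at 7.42% ± 1.95 in Ikaros and 1.75% ± 0.539 in Control (SD, n = 6 each, limma adjusted p = 0.00679). Id3, an inhibitor of E proteins, lay at 32.1% ± 2.42 and 23.5% ± 2.30 (SD, n = 6 each, adjusted p = 0.0434 by limma, 0.0886 with the replicate block). Each of the 12 fits without 1 sample lost the Id3 call. Ikzf3, which encodes the Ikaros relative Aiolos, was 9.98 points higher without passing the threshold (adjusted p = 0.0578 by limma), and was picked out after its value was seen.

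Of 26 clusters of pre-B receptor and PI3K-Foxo signalling genes, 1 was called, Prkcb, which encodes a protein kinase C downstream of the B-cell receptor. It was 9.80 points higher (limma adjusted p = 0.0289, and 0.0581 with the replicate block), and 1 Control sample reached 85.3%, above the lowest Ikaros sample at 84.7%. Of 24 clusters of glycolysis and nutrient uptake genes, 1 was called, Pfkl (phosphofructokinase), at 0.686% ± 0.428 in Ikaros and 2.28% ± 0.794 in Control (SD, n = 6 each, adjusted p = 0.0496 by limma). This call was lost in 20 of 26 alternatives, and over the 10 of 28 positions complete in all 36 samples the difference was −0.639 points. No cluster was called among 46 of the Notch pathway, 31 of DNA methylation writers, readers and erasers, 28 of the NuRD complex, 27 of cell cycle inhibitors and D cyclins, 48 of imprinted genes and 19 of germline genes. The 6 clusters of T-lineage, 4 of erythroid and megakaryocyte, 4 of myeloid and 5 of pre-B markers were also not called. At an unadjusted p under 0.05 by limma the first 6 of these lists held 10, 4, 0, 2, 2 and 3 clusters and the 4 marker lists 0, 0, 1 and 2, against 1852 of all clusters (10.4%). At the same cut, the lists of B-lineage factors, pre-B receptor signalling and glycolysis genes held 15 of 66, 4 of 26 and 3 of 24 clusters. Of the germline clusters, 17 of 19 were methylated in these cells.

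None of the 12 clusters near the starts of the genes used to follow this system was called by limma, and 0 had an unadjusted p under 0.05. Those of Myc, Foxo1, Hk2, Ldha, Slc7a5, Lig4 and Ap2a1 were at mean levels of 1.08% or less in both series, and Igll1 had no cluster. The 3 clusters at starts of Ikzf1 were between 97.4% and 98.8% in both series, with differences of −1.18 to 0.792 points.

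Both time points contributed to the calls. All 208 called clusters had the same sign at both times, with median differences in the called direction of 6.63 points at 2 h and 6.07 points at 6 h. Since the calls used both times, these counts describe the clusters and are not a test. Tested alone within 1 fit of the 4 groups, 33 clusters were called at 2 h (0.185%; 23 higher and 10 lower) and 15 at 6 h (0.084%; 15 higher and 0 lower), and with the replicate block 9 were called at 6 h. With the covariates 1 was called at 2 h and 2 at 6 h. Leaving out 1 replicate number gave 0 or 1 at 2 h and 0 to 2 at 6 h, and leaving out 1 sample gave 7 (without Control 2 h replicate 1) to 34 at 2 h and 8 (without Control 6 h replicate 1) to 20 at 6 h. Whether the difference itself changed from 2 h to 6 h was tested by the interaction term in limma, which called 0 clusters, with 709 at an unadjusted p under 0.05. Among the 208, 16 had such an interaction p, Bcr among them. Without Ikaros 2 h replicate 1 the interaction called 5 clusters, and without Ikaros 2 h replicate 3 it called 1.

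The same clusters were followed to the other time points, in samples the calls did not use. The labels list 4-OHT for all time points, whereas the methods describe the 0 h cells as not treated and as obtained separately. At 0 h the replicates came from batches 1, 2 and 4, and a difference between 0 h and the early times cannot be told apart from this. For 205 clusters with positions complete in all 36 samples, the median difference in the called direction was 7.20 points at 2 h and 6 h together, 4.94 at 0 h, 5.45 at 12 h, 5.20 at 18 h and 3.54 at 24 h. The direction was the same in 186 clusters (90.7%) at 0 h, 191 at 12 h, 199 at 18 h and 184 at 24 h. At 24 h, Control replicate 2 stood apart, at 52.4% in the clusters called higher and 14.5% in those called lower, against 46.1% to 46.2% and 18.5% to 18.9% in the other Control samples. Without replicate 2 the difference at 24 h was 5.16 points. Because the 2 h and 6 h values chose the clusters, they are not comparable in size with those of the other samples. Over 16734 clusters with complete positions, the share higher in Ikaros was 41.4% at 0 h, 51.3% at 12 h, 59.1% at 18 h and 60.3% at 24 h. At 0 h the clusters called higher averaged 54.3% ± 0.220 in Ikaros and 46.3% ± 0.577 in Control (SD, n = 3 each), and the series did not overlap. The clusters called lower averaged 15.3% ± 0.397 and 19.1% ± 0.110.

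**Figure D5:**
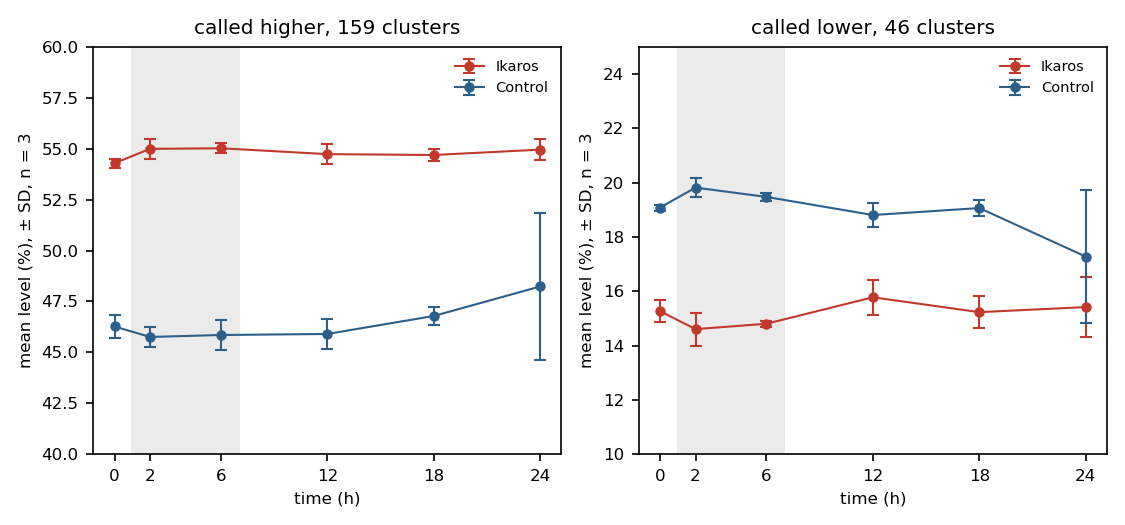
Mean level (%) with SD (n = 3) of the clusters called higher (left, 159 clusters) and lower (right, 46 clusters) at each time (h), with Ikaros in red and Control in blue and the times used for calling shaded. The axes do not start at 0. The series lie apart at 0 h in both panels, and at 24 h they overlap in the clusters called lower. The Control spread is widest at 24 h, at 3.61 and 2.45 points.

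The mean level of 1891 intermediate clusters with complete positions was also followed. At 0 h it was 61.4% ± 0.915 in Ikaros and 59.4% ± 0.767 in Control (SD, n = 3 each), a difference of 2.01 points. The difference was 1.80 points at 2 h, 2.10 at 6 h, 2.65 at 12 h, 1.86 at 18 h and 2.84 at 24 h. Of the single clusters, the difference at 0 h was 24.96 points at Mllt3, 38.4 points at Ephb6, 23.0 points at Zfp36, 21.6 points at Klf4 and −21.4 points at Bcr. At Neurog3, 18 of 30 positions were complete in all 36 samples. Over those 18 the difference was 15.1 points at 2 h and 6 h and 1.62 points at 0 h, where Ikaros was at 79.1% and Control at 77.5%. At Klf2, over the 45 of 68 positions complete in all 36 samples, the difference was 8.58 points at 2 h and 6 h and 1.76 points at 0 h. At Epha1 the difference at 0 h was 6.04 points, the opposite direction, with Ikaros at 86.3% and Control at 80.3%. At 12, 18 and 24 h the difference was 12.7, −4.83 and −11.4 points at Epha1 and −2.52, −11.5 and 1.91 points at Bcr, so the sign changed between time points in both. The sign was also opposite to the called one at Pwwp2b at 18 h (−5.55 points), Cxxc5 at 24 h (1.67) and Ablim1 at 24 h (−0.435). The same held at Cxcl3 at 18 h (0.0539 points) and at Pfkl at 0, 18 and 24 h (0.179, 0.181 and 0.161 points). No test was run on the differences between time points other than 2 h and 6 h.

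In sequence make-up, the GC content of the called clusters had a median of 66.8% in those higher and 66.7% in those lower, against 67.3% of all. CGs numbered 8.84 and 8.26 per 100 bp, against 9.40. Within the intermediate class, those called higher had a median GC content of 67.6% and 9.09 CGs per 100 bp, those called lower 63.3% and 5.39, and all 64.8% and 7.44. The core GGGAA that Ikaros recognises, searched on both strands in 200 bp around the middle of each cluster, was found in 44.1% of clusters called higher, 48.9% of those called lower and 45.2% of all 17864. The longer TGGGAA, which contains it, was found in 11.8%, 17.02% and 10.5%. A match in a sequence is a description of these windows and does not show binding. The called clusters lay singly, and 2 pairs lay within 10000 bp of each other, both in the same direction, at Zswim5 and at Gm48623.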

How the data were processed

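RRBS was measured in 36 samples of B3 cells, and the 12 at 2 h and 6 h were compared. After adapter trimming, the authors aligned with Bismark 0.10.1 (GRCm38), left out the first 4 bases of each read, limited high coverage and smoothed the levels with BiSeq (bandwidth 80 bp). The authors deposited methylation levels as fractions between 0 and 1, and also M-values on a log2 scale from levels limited to 0.01 to 0.99. Neither table holds reads, so the depth is not known, a coverage minimum could not be set, and precision rests on the spread between samples.

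Groups, replicates and batches came from the labels. Replicate numbers mark a shared batch there, so they pair the samples by label. Deviations of same-numbered samples from their group means had a mean correlation of 0.0095 (18 pairs), against −0.0048 for different numbers (36 pairs). The batch fit is given beside the results it changes.

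Fractions were turned into percent and averaged per cluster (Python 3.11.15, numpy 2.4.6, pandas 2.3.3, scipy 1.17.1). Clusters were tested with limma 3.58.1 in R 4.3.3 (lmFit, eBayes with trend, Benjamini-Hochberg), a step tested on simulated data. Mean levels were compared by exact permutation tests. Annotation came from GENCODE M21, and gene ends and sequences from RefSeq GRCm38. The named clusters were the 14 higher and 8 lower with the largest called differences (1 of the 8 is not reported here), the next 5 promoter clusters each way, called clusters of the gene lists, and those of 9 genes used to follow the system. The comparison, clusters and lists were chosen with earlier results of these data known. Alternatives were no trend, a robust prior, M-values, the replicate block, all 36 samples, other position sets and filters, centring, covariates, and each sample or replicate number left out. Leaving out single samples at 2 h, 6 h and for the interaction was chosen after seeing the data.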

Additional observations from a re-analysis of the deposited data

Results flagged for a closer look

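In 7 of 114 groups of 6 samples, 1 sample stood apart from the other 5 by a gap that was large for the group's range (Dixon's 95% critical value), and chance alone gives about 1 in 20 such groups. At Epha1, Ikaros 2 h replicate 1 was at 90.1%, with the others between 67.8% and 74.1%. At Klf2 the same sample was at 86.2%, with the others between 93.1% and 95.7%. At the Ikzf1 cluster chr11:11685400-11685649, Ikaros 2 h replicate 2 was at 91.6%, with the others between 97.1% and 99.8%. At the larger Bcor cluster, Control 6 h replicate 2 was at 28.1%, with the others between 18.0% and 21.5%. At D630045J12Rik, Control 6 h replicate 1 was at 6.08%, with the others between 9.16% and 10.8%. At Lig4, Ikaros 6 h replicate 1 was at 1.12% and the others at 0. At Slc7a5, Control 2 h replicate 3 was at 0.398%, with the others between 0.0694% and 0.159%.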

How the results depend on the processing

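No called difference of a named cluster and no mean level that passed the test changed sign under the alternatives run. Over positions complete in 36 samples, 203 of 205 called clusters kept the called direction. Differences of clusters that were not called, such as Ikzf1, changed sign. The count of 208 called clusters was 103 with M-values, 135 with the replicate block and 64 with the covariates. It ranged from 92 (without Ikaros 6 h replicate 1) to 149 without 1 sample and from 14 to 27 without 1 replicate number. At 2 h the 33 calls became 20 with a robust prior, 7 with M-values, 10 over 36 samples, 50 at levels of 5% to 95% and 1 with the covariates, and 0 to 34 with samples left out. At 6 h the 15 calls became 34 without the trend, 9 with M-values, 9 with the replicate block, 45 at levels of 5% to 95% and 2 with the covariates, and 0 to 20 with samples left out. The interaction gave 5 calls without Ikaros 2 h replicate 1, 1 without Ikaros 2 h replicate 3 and 0 in the other fits. The median difference in the clusters called at 2 and 6 h ranged from 4.91 to 5.44 points at 12 h and from 4.77 to 5.58 points at 18 h and from 2.43 to 5.16 points at 24 h without 1 replicate number. In the test of mean levels, the replicate block (series swapped within pairs) gave differences of 0.261 points over all, 1.94 over intermediate, 0.269 over promoter, 0.339 over intronic and 0.288 over intergenic clusters, each with an exact p of 0.03125, the smallest possible there, and an adjusted p of 0.05, which was not under the threshold. With medians over clusters in place of means, the difference was 1.31 points over all, 0.0458 over promoter and 0.0671 over intergenic clusters, not past the threshold. Without 1 replicate number the smallest possible p was 0.0556, so no call could pass, and the differences ranged from 0.222 to 0.284 over all, 1.76 to 2.08 over intermediate, 0.225 to 0.292 over promoter, 0.285 to 0.373 over intronic and 0.243 to 0.327 over intergenic clusters. The replicate block moved no other count by over 1.5 times and changed no other call among the mean levels. The causes of these changes were not tested. The depth of the levels is unknown.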
